A study of Mus musculus with 12 samples.

Results

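The receptor tyrosine kinase Ret, the co-receptors Gfra1, Gfra2 and Gfra3 and the ligands Gdnf, Nrtn and Artn were followed across the cell types of the mouse superior mesenteric ganglion (SMG), a sympathetic ganglion. The 7 genes were taken by symbol from the 32289 features of the count matrices, and all 7 were found there. Single-cell RNA-seq was available for a 3-week-old wild-type (WT) mouse (n = 1), 3-week-old Th-MYCN+/- mice (n = 10, numbered #1 to #10) and a 6-week-old Th-MYCN+/- mouse (n = 1), all of the 129+Ter/SvJcl strain. Th-MYCN+/- mice are hemizygous for a human MYCN transgene, here called H-MYCN, driven by the rat tyrosine hydroxylase promoter, which is active in sympathetic cells. The study asked how early neuroblasts in these ganglia either grow into tumors or disappear, and its 6-week ganglion was picked because it carried a tumor visible to the eye. With 1 WT and 1 6-week ganglion, no test between conditions was run.

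GDNF family ligands are secreted neurotrophic factors. Each binds a GFRα co-receptor on the cell membrane, GDNF preferring GFRα1, neurturin (Nrtn) GFRα2 and artemin (Artn) GFRα3, and the pair then binds and activates RET, which signals through MAP kinase, PI3 kinase and other routes. In the developing sympathetic nervous system, artemin acting through GFRα3 and RET is known for guiding the migration and axon growth of sympathetic neuroblasts, and GFRα proteins are also found on cells that lack RET, Schwann cells among them.

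A total of 12039 cells passed the filters, 522 to 1855 per 3-week Th-MYCN+/- mouse, 618 in the WT mouse and 945 in the 6-week mouse, and the 12 libraries held between 1147772 and 6388766 UMIs (unique molecular identifiers, each counted as 1 RNA molecule). Clusters were named from fixed markers, with the 7 genes and the other pathway genes left out of the clustering, which gave 5257 neuroblast-like, 2933 Schwann-like, 2715 ganglion-like (mature sympathetic neuron), 141 fibroblast-like, 165 myofibroblast-like, 514 endothelial-like, 94 B-like and 193 macrophage-like cells. The transgene was at 0 UMIs in the WT mouse and present in the neuroblast-like cells of all 10 Th-MYCN+/- mice at 3 weeks, with a median of 287 CPM. Mouse #2 stood apart: 81.6% of its cells were ganglion-like, against 26.6% in the next highest mouse, only 38.9% of its UMIs lay in cells (61.1% to 87.1% in the other 11 libraries), and it supplied 88.6% of 1 ganglion-like cluster. It gave 13 Schwann-like cells with 6432 UMIs in all. Results that rest on this mouse are also given without it. Of the cells, 1.55% shared a barcode with a cell of another library, at most 6 for any pair of libraries.

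For each mouse and class, a gene's UMIs were summed over cells and scaled to a class total of 1000000 UMIs (CPM). The genes lie on GRCm38 as follows: Ret on chromosome 6 from 118151745 to 118197718 (minus strand), Gfra1 on chromosome 19 from 58235604 to 58455909 (minus), Gfra2 on chromosome 14 from 70890120 to 70979838 (plus) and Gfra3 on chromosome 18 from 34689898 to 34720387 (minus). Of the ligands, Gdnf lies on chromosome 15 from 7810846 to 7837575 (plus), Nrtn on chromosome 17 from 56751325 to 56757530 (minus) and Artn on chromosome 4 from 117926162 to 117929763 (minus). All are protein coding, and UMIs were counted over whole genes. Gfra1 overlaps a gene on the other strand.

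The members fell into a detected and a nearly undetected group. Gfra3 had 9948 UMIs over all cells, Ret 1069 and Gfra2 720. Nrtn had 69 UMIs, Gfra1 8, Artn 4 and Gdnf 1. In the 10 mice, 68.0% of the Ret UMIs that fell in a named class were in ganglion-like cells and 31.0% in neuroblast-like cells. For Gfra3, 84.6% were in neuroblast-like cells, and for Gfra2 the UMIs were spread over neuroblast-like (36.9%), Schwann-like (31.6%) and ganglion-like cells (28.0%).

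Ret, the signaling subunit, was highest in ganglion-like cells. Its level there ranged from 33.3 CPM (#6) to 110 CPM (#5) over the 10 mice, with a median of 79.6 CPM and a mean of 74.3 ± 27.6 CPM (SD, n = 10). The neuroblast-like cells of these mice ranged from 9.91 to 34.2 CPM, with a median of 14.6 CPM and a mean of 16.6 ± 6.88 CPM (SD, n = 10). Ret was lower in neuroblast-like cells in 10 of 10 mice, and only the highest neuroblast-like value (#10) exceeded the lowest ganglion-like value. The log2 fold change was -2.17 (SE 0.20, adjusted p = 5.69e-09, edgeR quasi-likelihood test with the mouse as a block), and -2.14 without mouse #2.

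In Schwann-like cells Ret was close to undetected. The 10 mice together gave 6 UMIs in 2435684, or 2.46 CPM (95% Poisson interval 0.904 to 5.36), from 4 mice, and 6 mice had none. Too few counts remained for the fit, so an exact two-sided sign-flip test over mice was used on log2(CPM + 10), with p adjusted over the 15 tests of sparse members. Ret was lower in Schwann-like than in ganglion-like cells in 10 of 10 mice (mean log2 difference -2.72, exact adjusted p = 0.0146, n = 10) and lower than in neuroblast-like cells in 9 of 10 mice (mean log2 difference -1.09, exact adjusted p = 0.0195, n = 10). The unadjusted exact p of the first, 0.00195, is the smallest that 10 mice allow, and without mouse #2 the exact adjusted p were 0.0293 and 0.0391 (n = 9). Fibroblast-like, myofibroblast-like, macrophage-like and B-like cells of the 10 mice held no Ret UMI, which at their depth allows up to 37.8, 28.9, 10.2 and 37.6 CPM (3 counts).

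Gfra3, the artemin co-receptor, was highest in neuroblast-like cells. The 10 mice ranged from 312 to 869 CPM there, with a median of 505 CPM and a mean of 512 ± 190 CPM (SD, n = 10). Ganglion-like cells ranged from 46.2 to 382 CPM, with a median of 95.1 CPM and a mean of 142 ± 98.5 CPM (SD, n = 10). Gfra3 was higher in neuroblast-like cells in 10 of 10 mice (log2 fold change 1.96, SE 0.18, adjusted p = 8.30e-09, edgeR), and by 2.03 without mouse #2. The ranges overlapped through mouse #8 alone, whose ganglion-like value of 382 CPM lay above the values of mice #1, #2, #3 and #10 in neuroblast-like cells. Ret and Gfra3 thus changed in opposite directions between the same cells of the same mice.

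Schwann-like cells also carried Gfra3. The values ran from 0 to 317 CPM, with a median of 176 CPM and a mean of 178 ± 106 CPM (SD, n = 10). The value of 0 belonged to mouse #2, where the depth allowed up to 466.4 CPM, and the other 9 mice lay between 86.0 and 317 CPM. Gfra3 was lower in Schwann-like than in neuroblast-like cells in 10 of 10 mice (log2 fold change -1.21, SE 0.17, adjusted p = 1.55e-06, edgeR). Against ganglion-like cells the fold change was 0.72 (SE 0.25, adjusted p = 0.0149, edgeR), but it was higher in only 6 of 10 mice. Without mouse #2 it was 0.59 (adjusted p = 0.0475, edgeR), and adjusted p rose to 0.0596, 0.0757 and 0.0976 without mouse #3, #5 or #7. A difference in Gfra3 between Schwann-like and ganglion-like cells therefore did not hold up against the spread between mice.

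A neuroblast marker was compared between Schwann-like cells with and without a Gfra3 UMI. Among Schwann-like cells thinned at random to 1000 UMIs each, so that all had the same depth, Dlk1 was found in 2.56% of 117 Gfra3-positive cells and in 2.06% of 970 Gfra3-negative cells, against 71.2% of neuroblast-like cells. Dlk1 was among the markers that named the neuroblast-like clusters, so its shares in the classes are not independent of the naming. The shares are descriptions over cells and were not tested.

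Gfra2, the neurturin co-receptor, was highest among the 3 main classes in Schwann-like cells. The 10 mice ranged from 41.2 to 155 CPM there, with a median of 68.0 CPM and a mean of 84.5 ± 37.9 CPM (SD, n = 10). The neuroblast-like values ranged from 5.12 to 28.7 CPM (mean 15.1 ± 7.41, SD, n = 10) and the ganglion-like values from 4.80 to 31.8 CPM (mean 20.7 ± 9.24, SD, n = 10). Every Schwann-like value lay above every value of the other two classes. Gfra2 was higher in Schwann-like than in neuroblast-like cells by 2.72 on the log2 scale (SE 0.28, adjusted p = 9.48e-09, edgeR, 10 of 10 mice), and by 2.69 without mouse #2. It failed the count filter against ganglion-like cells, where the sign-flip test gave a mean log2(CPM + 10) difference of 1.60 (exact adjusted p = 0.0146, n = 10), higher in 10 of 10 mice, and of 1.51 without mouse #2 (exact adjusted p = 0.0293, n = 9). Between neuroblast-like and ganglion-like cells the change was -0.53 (SE 0.28, adjusted p = 0.0995, edgeR), lower in 6 of 10 mice, which did not pass the threshold.

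Fibroblast-like cells, although few, held Gfra2 too. The 92 cells of the 10 mice gave 15 Gfra2 UMIs in 79458, or 189 CPM (95% Poisson interval 106 to 311), in 7 of the 10 mice. The WT and 6-week mice gave 339 and 324 CPM from 7 and 8 UMIs. Endothelial-like cells of the 10 mice held no Gfra2 UMI in 650375, which allows up to 4.61 CPM. No test was run on these small classes.

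**Figure D1:**
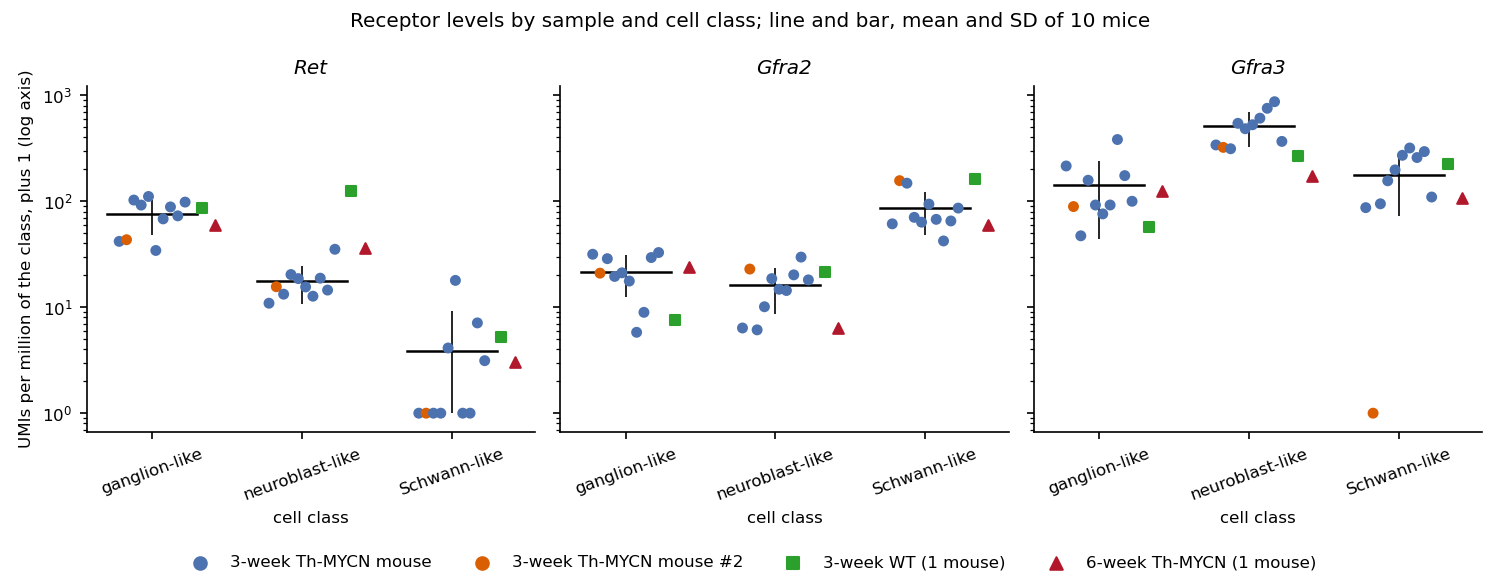
Level of Ret, Gfra2 and Gfra3 per sample (CPM of the class plus 1, log axis) in ganglion-like, neuroblast-like and Schwann-like cells, with the mean and SD of the 10 3-week Th-MYCN+/- mice; points at the foot of the axis are values of 0. Ret falls from ganglion-like (mean 74.3 CPM) to neuroblast-like (16.6) to Schwann-like cells (2.83), Gfra2 is highest in Schwann-like (84.5) and Gfra3 in neuroblast-like cells (512).

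Of the 7 members, 3 passed the filter on low counts between neuroblast-like and ganglion-like cells, and 2 of them passed the test. Among all 7823 genes tested there 66.9% passed, 34.0% as higher and 32.9% as lower, so a call by itself sets no member apart. Against ganglion-like cells, Schwann-like cells had 1 member tested and called, where 69.2% of 3239 genes were called. Against neuroblast-like cells, 2 members were tested and called, 1 higher and 1 lower, where 67.5% of 5714 genes were called, 31.4% as higher and 36.1% as lower.

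Detection per cell was compared at equal depth, where mouse #2 supplied most of the ganglion-like cells. In cells thinned to 1000 UMIs, a Ret UMI was found in 4.82% of 1433 ganglion-like cells (exact 95% binomial interval 3.77 to 6.05), in 1.21% of 3065 neuroblast-like cells (0.851 to 1.66) and in 0.0920% of 1087 Schwann-like cells (0.00233 to 0.511). Without thinning the shares were 11.6%, 4.06% and 0.268%, at median depths over all cells of 1150, 2561 and 966 UMIs. Gfra3 was found in 34.0% of neuroblast-like, 9.28% of ganglion-like and 10.8% of Schwann-like thinned cells, and in 48.0%, 16.3% and 13.7% of the unthinned ones. Gfra2 was found in 6.44% of Schwann-like, 2.09% of ganglion-like and 1.31% of neuroblast-like thinned cells, and in 7.83%, 4.93% and 4.00% of the unthinned ones. Without mouse #2, 496 thinned ganglion-like cells remained, of which 7.26% held Ret (5.13 to 9.91), 11.9% Gfra3 (9.18 to 15.1) and 2.42% Gfra2 (1.26 to 4.19). Gfra3 was then above the 10.8% of Schwann-like cells, within the counting error of both, so no order of these classes can be read for it. The unthinned ganglion-like shares without mouse #2 were 21.8% for Ret, 25.3% for Gfra3 and 8.58% for Gfra2, the last above the 7.83% of Schwann-like cells. Thinning left out 1060 ganglion-like, 1784 neuroblast-like and 1148 Schwann-like cells that were shallower. All intervals cover counting error only.

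The same genes were counted in endothelial-like cells and in empty droplets. At 1000 UMIs, 0.422% of 237 endothelial-like cells held a Ret UMI, 0.422% a Gfra3 UMI and none a Gfra2 UMI. The Ret share of Schwann-like cells was no higher than the endothelial-like share, which rests on very few cells. The part of free RNA in these shares was not tested. The median depth of all endothelial-like cells, before thinning, was 1144.5 UMIs. The fluid of empty droplets held 96.2 to 480 CPM of Gfra3, 7.34 to 43.3 CPM of Ret and 9.36 to 61.8 CPM of Gfra2 over the 10 mice. Macrophage-like and B-like cells held no Gfra3 UMI in the 10 mice.

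**Figure D2:**
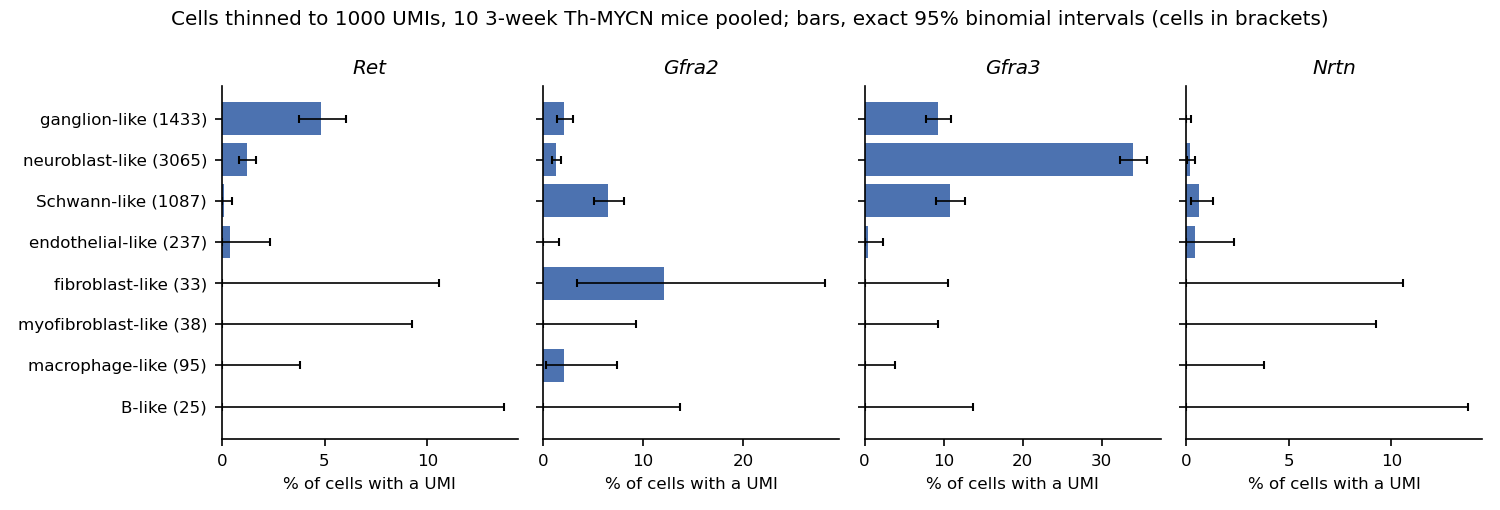
Share of cells with a UMI of Ret, Gfra2, Gfra3 or Nrtn in each of the 8 cell classes after thinning every cell to 1000 UMIs (10 3-week Th-MYCN+/- mice pooled, number of cells in brackets, exact 95% binomial intervals). Gfra3 reaches 34.0% in neuroblast-like cells, Ret 4.82% in ganglion-like cells (7.26% without mouse #2) and Gfra2 6.44% in Schwann-like cells, while Nrtn stays at 0.644% or less; the intervals of the 4 smallest classes are wide.

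The ligands were scarce in the 3 main classes. Myofibroblast-like and fibroblast-like cells of the 10 mice held no Gdnf or Artn UMI. Their depth allows up to 28.9 and 37.8 CPM (3 counts), so scarcity there is not shown. Gdnf had a single UMI, in a ganglion-like cell, and none in 14935090 UMIs of neuroblast-like cells, which allows up to 0.201 CPM. Artn, the ligand of the most abundant co-receptor, had 4 UMIs in all, 3 in ganglion-like cells (0.385 CPM, Poisson interval 0.0793 to 1.12) and 1 in Schwann-like cells (0.411 CPM). Nrtn was the only ligand with more than a few counts. In the 10 mice it had 35 UMIs in neuroblast-like cells (2.34 CPM, Poisson interval 1.63 to 3.26), 14 in Schwann-like cells (5.75 CPM, 3.14 to 9.64), 7 in ganglion-like cells (0.898 CPM, 0.361 to 1.85) and 4 in myofibroblast-like cells (38.6 CPM, 10.5 to 98.8).

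Nrtn was higher in Schwann-like than in ganglion-like cells in 6 mice and lower in 1, with none in either class in the remaining 3. The sign-flip test gave a mean log2(CPM + 10) difference of 0.39 (exact p = 0.0469, adjusted p = 0.141, n = 10), which did not pass the threshold, and the difference from neuroblast-like cells (0.24, exact p = 0.0469, adjusted p = 0.141, n = 10) did not either. Gfra1, the GDNF co-receptor, had no UMI among the 7797343 of ganglion-like cells (limit of 3 counts, 0.385 CPM), 4 UMIs in neuroblast-like (0.268 CPM) and 2 in Schwann-like cells (0.821 CPM). In the 3 main classes the ligands and Gfra1 were thus at or near the limit of detection, and none of their differences between these classes passed the test. Myofibroblast-like and fibroblast-like cells entered no test. The latter held 2 Nrtn UMIs in the 10 mice (25.2 CPM, Poisson interval 3.05 to 90.9).

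The ganglion-like and neuroblast-like classes were each made of 3 clusters, for which pooled values and means over mice with at least 5 cells are given. The ganglion-like cluster mostly of mouse #2 (1373 cells, median 1284 UMIs) held 46.5 CPM of Ret over the pooled mice. The cluster of low depth (799 cells, median 516 UMIs) held 138 CPM and the cluster of high depth (321 cells) 79.6 CPM. As means over mice these were 65.9 ± 27.6 (SD, n = 4), 103 ± 67.7 (SD, n = 10) and 67.0 ± 32.7 CPM (SD, n = 10). The pooled difference between the cluster mostly of mouse #2 and the cluster of high depth was thus not seen in the means. Leaving out the cluster mostly of mouse #2 altogether left the change of Ret between neuroblast-like and ganglion-like cells at -2.14. Among neuroblast-like cells, the cluster led by Cartpt and H-MYCN held 688 CPM of Gfra3, the deep cluster led by cell cycle genes 440 CPM and the shallow cluster, also led by cell cycle genes, 451 CPM, while Ret was at 20.5, 17.5 and 16.0 CPM. As means over the 10 mice, Gfra3 in these 3 clusters was at 662 ± 217, 391 ± 228 and 470 ± 163 CPM (SD). Ret was at 19.4 ± 9.85, 13.6 ± 10.8 and 14.0 ± 11.9 CPM (SD), means that lay within the spread between mice. Clusters were not compared by a test.

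The contrast between cycling and non-cycling neuroblast-like cells was tested directly. Cells thinned to 1000 UMIs were called cycling with at least 3 UMIs of 30 cell cycle genes and non-cycling with none, and the 30 genes were left out of the test. Gfra3 ranged from 184 to 802 CPM in the 2054 cycling cells (median 472, mean 453 ± 186, SD, n = 9 mice) and from 523 to 1269 CPM in the 510 non-cycling cells (median 722, mean 831 ± 277, SD, n = 9 mice). The non-cycling value was the higher in 9 of 9 mice, although the ranges over mice overlapped. The log2 fold change was -0.96 (SE 0.13, adjusted p = 1.35e-06, edgeR), where 28.3% of 1723 genes tested were called. Mouse #2 had too few such cells and did not enter.

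The 6-week mouse moved the same way, with 169 CPM in 183 cycling and 510 CPM in 51 non-cycling cells. The other receptors were too sparse for the fit. Ret had 15 UMIs in cycling cells (7.30 CPM, 95% Poisson interval 4.09 to 12.04) and 13 in non-cycling cells (25.5 CPM, 13.6 to 43.6), and Gfra2 had 34 (16.6 CPM, 11.5 to 23.1) and 4 (7.84 CPM, 2.14 to 20.1). These sums over mice carry counting error only and were not tested.

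Transgene detection split the neuroblast-like cells without a detectable change of Gfra3. The 766 cells with an H-MYCN UMI held 328 to 1000 CPM of Gfra3 (mean 595 ± 250, SD, n = 9 mice) and the 2274 cells without one held 259 to 909 CPM (mean 538 ± 202, SD, n = 9 mice). Gfra3 was higher with the transgene UMI in 5 of 9 mice (log2 fold change 0.09, SE 0.11, adjusted p = 0.964, edgeR), where 0.168% of 2378 genes tested were called. At this depth a cell without an H-MYCN UMI may still express the transgene. Ret had 7 UMIs in the cells with the transgene UMI (9.14 CPM, Poisson interval 3.67 to 18.8) and 29 in the others (12.8 CPM, 8.54 to 18.3).

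**Figure D3:**
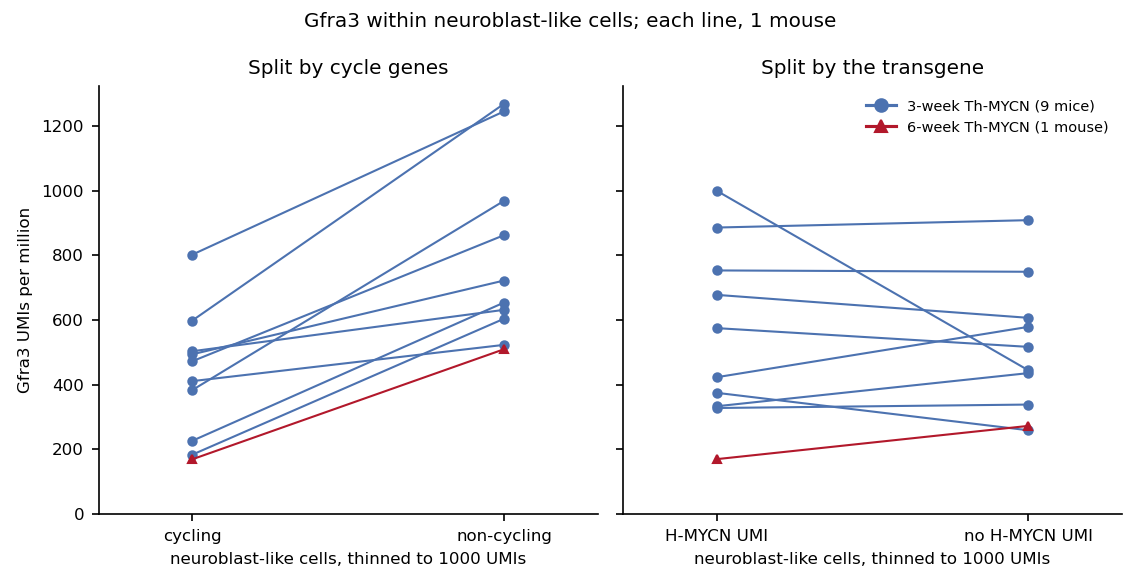
Gfra3 level (CPM) in neuroblast-like cells thinned to 1000 UMIs, split by cell cycle genes (left) or by an H-MYCN UMI (right); each line joins the values of 1 mouse, 9 3-week Th-MYCN+/- mice in blue and the 6-week mouse in red. All 9 blue lines rise toward non-cycling cells (means 453 and 831 CPM), while the lines of the transgene split cross (means 595 and 538 CPM).

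Co-detection of Ret with its co-receptors was counted per cell at equal depth. Of 69 ganglion-like cells with a Ret UMI after thinning to 1000 UMIs, 7 held Gfra3 and 1 held Gfra2, and of 37 such neuroblast-like cells 15 held Gfra3 and none Gfra2. In neuroblast-like cells Gfra3 was found in 45.2% ± 14.9 of Ret-positive and 36.1% ± 6.29 of Ret-negative cells (SD, n = 3 mice with at least 5 Ret-positive cells), and in ganglion-like cells in 7.72% ± 9.31 and 10.8% ± 4.93 (SD, n = 4 mice). Without mouse #2, 3 of 36 Ret-positive ganglion-like cells held Gfra3 (mean 6.25% against 11.9% of Ret-negative cells, n = 3 mice). None of the 8 pairs tested passed the exact sign-flip test, with 0 below an unadjusted p of 0.05, but with at most 5 mice a pair the smallest p possible was 0.0625. Without thinning, 5 of 9 pairs passed, Gfra3 being found in 79.5% of Ret-positive and 48.4% of Ret-negative neuroblast-like cells (exact adjusted p = 0.0234, n = 9 mice), and in 46.4% and 15.7% of ganglion-like cells (exact adjusted p = 0.0234, n = 8 mice). Of these 5, the pair of Ret and Gfra2 in ganglion-like cells did not pass without mouse #2 (exact adjusted p = 0.0422 with and 0.0563 without it, n = 8 and 7 mice). The Ret-positive cells of that count were deeper, with median depths of 5136 against 2321 UMIs in neuroblast-like cells and 10359.5 against 1061 UMIs in ganglion-like cells. The part of depth in that association was not tested.

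The single WT and 6-week mice were set against the range of the 10 mice. In ganglion-like cells, Ret was at 85.2 CPM in the WT mouse (26 UMIs, 95% Poisson interval 55.6 to 125) and at 58.5 CPM in the 6-week mouse (59 UMIs, 44.5 to 75.5), both inside the range of 33.3 to 110 CPM. Gfra3 there was at 55.7 and 125 CPM and Gfra2 at 6.55 and 22.8 CPM, inside their ranges as well. All 6 ganglion-like values thus lay within the spread of 3-week Th-MYCN+/- mice, where 16.6% (WT) and 7.59% (6-week) of the 7823 genes fell outside it.

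In neuroblast-like cells the 6-week mouse lay outside the range for 2 of the 3 receptors. Gfra3 was at 171 CPM (411 UMIs, Poisson interval 155 to 189), below the lowest of the 10 mice (312 CPM). Ret was at 35.0 CPM (84 UMIs, 27.9 to 43.4), above the highest (34.2 CPM, #10) by less than its counting error. Gfra2 was at 5.42 CPM, inside the range. For comparison, 19.9% of the same 7823 genes lay outside the range in this class and mouse. The receptor values rest on a single animal that differed in age and carried a tumor, which cannot be told apart.

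The WT mouse had 36 neuroblast-like cells with 48613 UMIs. Ret was at 123 CPM (6 UMIs, Poisson interval 45.3 to 269) and Gfra3 at 267 CPM (13 UMIs, 142 to 457), the first above and the second below the 10 mice. At this depth 68.1% of the same 7823 genes lay outside the range of the mice, so no difference can be read from these values. Under a stricter cell filter (at least 500 genes) 12 of these cells remained, with Ret at 74.1 CPM and Gfra3 at 29.6 CPM. In Schwann-like cells, Gfra2 in the WT mouse (161 CPM, 38 UMIs, 114 to 221) lay above the highest of the 10 mice (155 CPM, #2, 1 UMI). Without mouse #2 the mean of the mice was 76.6 ± 30.3 CPM (SD, n = 9). Under the stricter filter and with cells of at least 1000 UMIs, WT Gfra2 was at 179 to 185 CPM. All other Schwann-like values of Ret, Gfra2 and Gfra3 in the WT and 6-week mice lay inside the range. Gfra3 in the WT Schwann-like cells was at 224.5 CPM, at 96.8 CPM under the stricter filter and at 67.2 CPM with cells of at least 1000 UMIs, each inside the range of the mice under the same setting. In Schwann-like cells 9.91% (WT) and 5.32% (6-week) of the 7823 genes tested between neuroblast-like and ganglion-like cells lay outside.

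The other 55 genes of the pathway were taken from a list by role. Between neuroblast-like and ganglion-like cells, 29 passed the filter, of which 5 were higher and 15 lower in neuroblast-like cells, with a median log2 fold change of -0.52 over the 29 against 0.04 over all genes tested. Over all genes 34.0% were higher and 32.9% lower, 66.9% in all. The share of pathway genes called in either direction was near that background, but 15 of the 20 called were lower. The split by direction was not tested. Among adaptors and effectors, 2 of 13 tested were higher and 5 lower. Pik3r1, the regulatory subunit of PI3 kinase, rose by 3.51 (SE 0.15, adjusted p = 2.59e-13, edgeR), and the adaptor Grb10 by 1.72. Mapk3, which encodes the kinase ERK1, fell by 2.00 on the log2 scale and the adaptor Shc1 fell by 2.23. Etv1, an ETS factor and MAP kinase target, fell by 2.34 from a mean of 20.3 CPM in ganglion-like cells to 3.56 CPM. Of the other ligands and receptors, Gfra4, the persephin co-receptor, named here after its values were seen, was lower by -1.29 on the log2 scale (adjusted p = 0.000123, edgeR, 9 of 10 mice).

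All 7 transcription factors of the autonomic lineage that were tested passed the test between these classes, 3 higher and 4 lower, where 66.9% of all genes did. Isl1, a LIM homeodomain factor, rose in neuroblast-like cells by 1.44 (SE 0.12, adjusted p = 9.75e-10, edgeR), from a mean of 367 to 1007 CPM. The genes on the list for inhibitors and turnover gave 0 higher and 2 lower of 3 tested, and the targets 0 higher and 2 lower of 3.

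In Schwann-like cells all autonomic factors tested were lower. The count filter keeps a gene with enough counts in a single class. A factor found only in the other class thus enters the test and can only be lower, so the counts of these factors are a description. Against ganglion-like cells, 5 of 18 pathway genes tested were higher and 11 lower, and 6 of 6 autonomic factors were lower, among them Gata2 (-4.78), Phox2a (-4.32) and Hand2 (-3.85), where 34.1% of all genes tested were higher and 35.1% lower. Against neuroblast-like cells, 4 of 19 were higher and 11 lower, with 7 of 7 autonomic factors lower, among them Gata3 (-4.20), Isl1 (-3.96) and Phox2a (-3.63), where 31.4% of all genes tested were higher and 36.1% lower. Egr1, an immediate early gene downstream of MAP kinase, was higher in Schwann-like cells in 10 of 10 mice in both comparisons. The change was 3.46 against ganglion-like and 3.03 against neuroblast-like cells. Under a finer clustering, a Schwann-like cluster of 596 cells had Egr1 among its top genes, with Fos, Junb, Atf3 and Hspa1a. The part of RET signaling in the Egr1 level was not tested. In cycling neuroblast-like cells, 2 of 11 pathway genes were higher and 5 lower, against 14.9% and 13.3% of all genes tested, with Phox2a (-1.59, adjusted p = 5.42e-10) and Mapk3 (-1.15, adjusted p = 3.75e-05) lower in 9 of 9 mice (edgeR). No pathway gene passed the test in the transgene split, out of 14 tested.

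**Figure D4:**
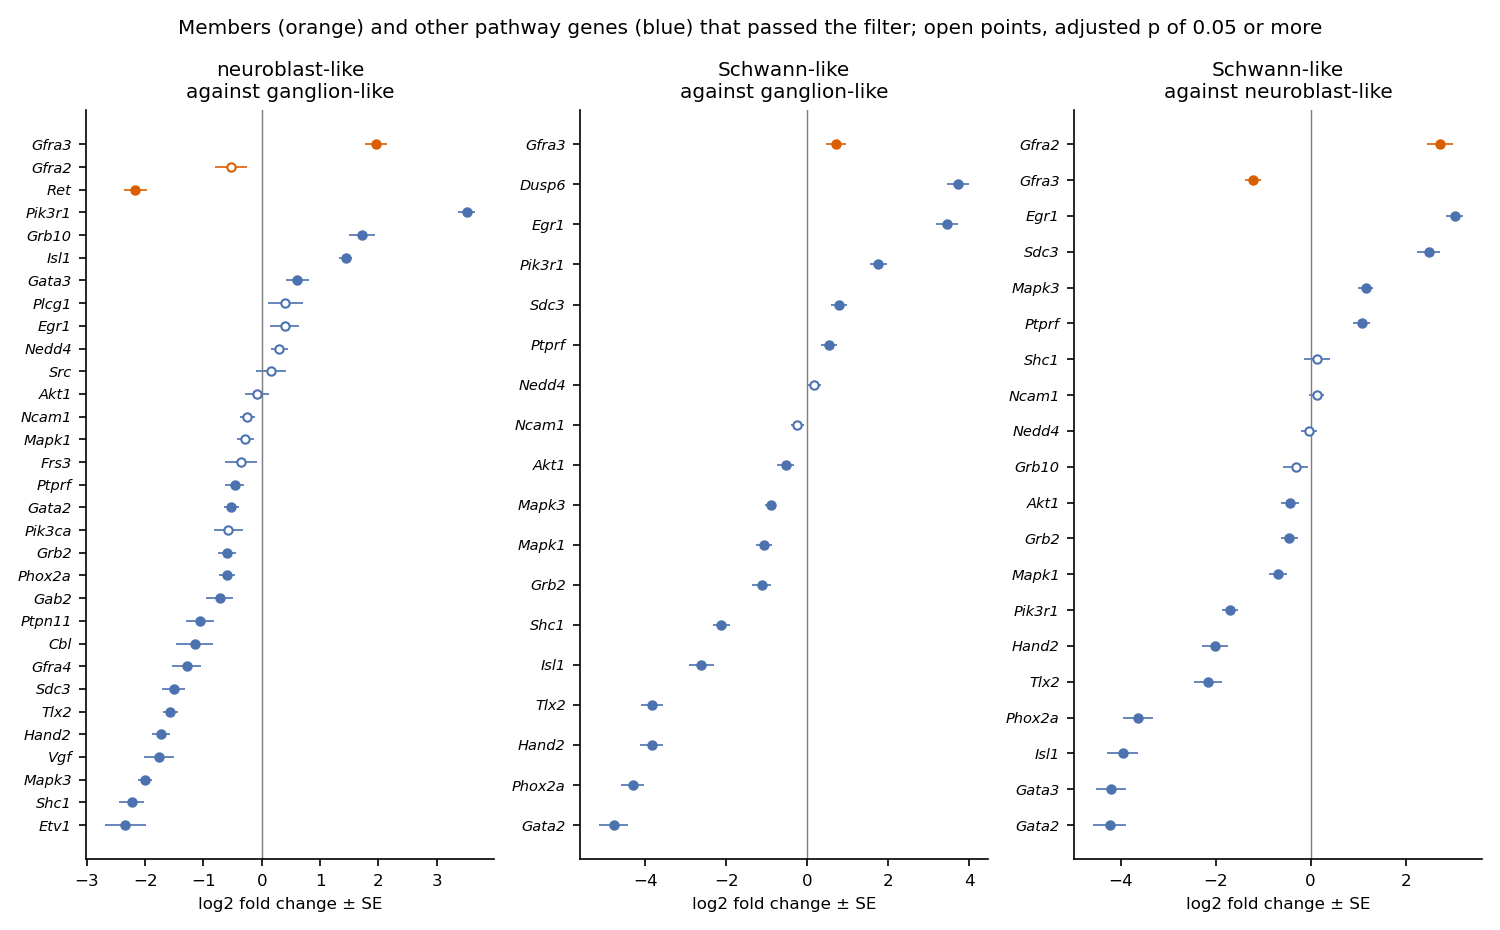
Log2 fold change with SE (edgeR) of the members (orange) and the other pathway genes (blue) that passed the count filter in each of the 3 class comparisons; filled points passed an adjusted p of 0.05, and 1 pathway gene is not shown. Ret (-2.17) and Gfra3 (1.96) lie on opposite sides between neuroblast-like and ganglion-like cells, and Gfra2 (2.72) and Gfra3 (-1.21) between Schwann-like and neuroblast-like cells.

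The receptors were compared with the 7823 genes that passed the count filter between neuroblast-like and ganglion-like cells. Genes found mainly in other classes could be missing there. The genes with patterns most like the receptors were ranked by the Pearson correlation of log2(CPM + 10) over 73 sums, each of 1 mouse and 1 class. For Ret they were Lhfpl5 (r = 0.92), Cntn1 (0.91), a neuronal adhesion molecule, and Plcxd3 (0.91), all highest in ganglion-like cells among the 3 main classes. For Gfra3, Nnat (0.91) and Dpysl4 (0.90) were among them. Nnat was among the markers that named the neuroblast-like clusters, so its value is not independent of the naming. For Gfra2 they were Ptch1 (0.79), the hedgehog receptor, Sfrp5 (0.70), a secreted Wnt inhibitor, and Rab34 (0.69). For Gfra1, with 6 UMIs in these mice, the best were Tafa5 (0.40), Gpc6 (0.39) and Cadm4 (0.39), which in counts this sparse is no finding. The sums share mice, libraries and depth, so these values are a description.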

How the data were processed

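Single-cell RNA-seq libraries (Chromium, 3' chemistry) of dissociated SMGs were sequenced and counted by the authors with Cell Ranger 3.0.2 against mm10 plus the human MYCN transgene. The deposited matrices hold raw UMI counts per gene and barcode, not filtered for cells. No source used here states the strand setting of the counting. The 3 spike-in features were left out.

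Barcodes were called as cells with an implementation of EmptyDrops (ambient profile from barcodes with at most 100 UMIs, 10000 iterations, FDR below 0.01). Cells had at least 200 genes, at most 10.0% mitochondrial and 60.0% ribosomal UMIs, and no doublet caller was run. SCTransform (Seurat 5.3.0, 2000 variable genes, regression of depth, mitochondrial, ribosomal and cell cycle scores) and Louvain clustering at resolution 0.5 on 30 components gave 14 clusters, named where at least 50.0% and at least 3 of a list's markers were 1.5 times as high as in other cells and in at least 10.0% of the cluster's cells; this rule was set after the clusters were seen. The cluster named B-like also held T cell genes, and 27 cells stayed unnamed.

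Counts were summed per mouse and class (at least 5 cells). The 10 3-week Th-MYCN+/- mice were tested with edgeR 4.0.16 (quasi-likelihood, TMM, filterByExpr, the mouse as a block, Benjamini-Hochberg over all genes tested, threshold 0.05). Both sums of a pair came from the same animal, and their deviations from the class means correlated by -0.0076 to 0.565. Members below the filter were tested by exact sign-flip tests. The fit was tested on simulated data: of 170 tested genes changed by 1.5 (log2) in the comparison of neuroblast-like with ganglion-like cells, 167 were recovered, with 7 false calls. The simulated counts had the same spread for every gene, no differences between mice and fewer changed genes than the data. They do not give the error rates of the fit on the data. DESeq2 1.42.0, other filters, other clusterings and each mouse left out were tried as alternatives. Precision is limited by depth (1147772 to 6388766 UMIs per library).

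The 7 genes, the gene lists and the tests were chosen with earlier results of these data known. Named genes were all 7 members, the 3 pathway genes with the largest change in each direction that passed the test with the same sign in every mouse, and the 3 genes most like each receptor; 1 gene that the last rule names is not reported here. The labels call the 10 mice biological replicates and give no batch or date.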

Additional observations from a re-analysis of the deposited data

Results flagged for a closer look

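Of 19 sets of values over the 3-week Th-MYCN+/- mice, 5 had a highest mouse whose gap to the next exceeded Dixon's 95% critical value, where chance gives about 1 in 20. The neuroblast-like Ret level of mouse #10 was 34.2 CPM, and the next was 19.3 CPM. The Schwann-like Ret level of mouse #6 was 16.9 CPM, next to 6.11 CPM, and rests on 2 UMIs. The ganglion-like Gfra3 level of mouse #8 was 382 CPM, next to 214 CPM. The neuroblast-like Nrtn level of mouse #4 was 10.2 CPM, next to 3.28 CPM, and that mouse supplied 18 of the 35 Nrtn UMIs of this class. The ganglion-like share of cells was 81.6% in mouse #2, next to 26.6%.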

How the results depend on the processing

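With the mouse as a block, 5235, 2243, 3855, 487 and 4 genes passed between neuroblast-like and ganglion-like, Schwann-like and ganglion-like, Schwann-like and neuroblast-like, cycling and non-cycling, and H-MYCN-positive and H-MYCN-negative cells. Without the replicate block the counts were 5289, 2134, 3855, 370 and 1, and no call of a member changed. Without a filter on low counts, 6954, 7856, 1258 and 42 genes passed in the last 4 comparisons. Thinning to 500 UMIs gave 301 genes between cycling and non-cycling cells and 2 in the transgene split, where clustering of log-normalized counts gave 0. Leaving out each mouse in turn gave 4717 to 5379, 2016 to 2664, 3266 to 4468, 388 to 569 and 2 to 5 genes, the 2 being without mouse #4.

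The change of Gfra3 between Schwann-like and ganglion-like cells was 0.55 with DESeq2 (adjusted p = 0.0911), 0.35 without a filter (0.232), 0.31 under a stricter cell filter, 500 genes or more with mitochondrial UMIs up to 5% (0.282) and 0.23 with cells of at least 1000 UMIs (0.458), and 0.45 to 0.81 with each mouse left out; the cause was not tested. In the transgene split, Gfra3 was at -0.081 without a filter (adjusted p = 0.941). Over the alternatives other than leaving out a mouse, Ret between neuroblast-like and ganglion-like cells lay between -2.48 and -1.90, Gfra3 between 1.90 and 2.11 and Gfra2 between -0.62 and -0.30 (adjusted p 0.0594 to 0.377). DESeq2 moved the median of all genes in that comparison from 0.04 to 0.17. The calls of Gfra2 and Gfra3 between Schwann-like and neuroblast-like cells and of Gfra3 between cycling and non-cycling cells kept their direction and passed under each alternative.

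Without thinning, 5 pairs passed the co-detection test (1 of them lost without mouse #2) against 0 with it. The difference in Gfra2 detection between Ret-positive and Ret-negative cells then became 7.12 percentage points in neuroblast-like and 14.3 in ganglion-like cells, and that in Gfra3 in ganglion-like cells became 30.8, and 1.08 after thinning to 500 UMIs. Leaving out the shallowest neuroblast-like cluster or the ganglion-like cluster mostly of mouse #2 was chosen after seeing the data. Depth limits the ligands and Gfra1, and all values of the WT neuroblast-like cells.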

Other observations

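Across the 10 3-week Th-MYCN+/- mice, the Gfra3 level of neuroblast-like cells went with that of Schwann-like cells of the same mouse. Pearson's r was 0.83 (permutation p = 0.00206, adjusted over 3 relations 0.00618, n = 10) and Spearman's rho 0.85 (permutation p = 0.003, adjusted 0.009, n = 10). Without mice #8 and #9, farthest from the median, r was 0.89, and without mouse #2 it was 0.83 (permutation p = 0.00578, n = 9). The relation of ganglion-like with neuroblast-like cells did not pass (r = 0.52, permutation p = 0.164, adjusted 0.247, n = 10; rho = 0.56, permutation p = 0.0987, adjusted 0.148, n = 10), and r was -0.03 without mice #8 and #9. The relation of ganglion-like with Schwann-like cells did not pass either (r = 0.24, permutation p = 0.552, adjusted 0.552, n = 10; rho = 0.15, permutation p = 0.680, adjusted 0.680, n = 10), with r at 0.31 without mice #1 and #8. These relations were chosen after the values were seen. Gfra3 in the empty droplets also differed between mice, from 96.2 CPM (#3) to 480 CPM (#8), with a median of 184 CPM near the Schwann-like median of 176 CPM, and mice #8 and #9 (347 CPM) were the highest. Its part in the relation was not tested. Endothelial-like cells of the same 10 mice held 2 Gfra3 UMIs in 650375, and macrophage-like cells none in 293949.

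The list of 5 genes of cholinergic neurons (Chat, Slc18a3, Slc5a7, Vip and Sst), a type known to use Ret in sympathetic ganglia, was summed in ganglion-like cells. The sum was 17.6 CPM in the 10 mice, from 0 to 40.7 CPM per mouse. It was 3.28 CPM in the WT and 18.8 CPM in the 6-week mouse. The WT value lies below the limit of 3 counts in its 305267 UMIs, 9.83 CPM. The sums do not show which of the 5 genes supplied the counts.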
